A study of Mus musculus with 36 samples.

Results

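Inositol pyrophosphates carry a diphosphate group on the inositol ring. Inositol hexakisphosphate kinases (Ip6k1, Ip6k2 and Ip6k3) attach the first diphosphate to inositol hexakisphosphate, and Ppip5k1 and Ppip5k2, which also have a phosphatase domain, act on the same ring at another position. Upstream of them, Ipmk (inositol polyphosphate multikinase), Itpk1 (inositol-tetrakisphosphate kinase) and Ippk, the kinase that makes inositol hexakisphosphate, supply the substrate, and the Nudix hydrolases Nudt3 and Nudt4 remove diphosphates. In liver and fat the pathway is known for its link to insulin signalling through Akt and to phosphate export through Xpr1. These 10 genes were taken by name from the table of 56748 genes, and each name was found once. Whether the paralogs and partners of Ip6k2 moved with it in liver was asked.

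RNA of liver and visceral white adipose tissue (visWAT, taken from the epididymal depot) was sequenced from 18 male mice on a C57BL/6J background, 36 libraries in all, without pooling. In Mlkl Adi-KO mice, both a Cre transgene that is active in mature adipocytes and Mlkl alleles flanked by loxP sites were present, while WT littermates had the flanked alleles only. From 16 weeks of age the mice received a normal chow diet (NCD, 4 mice per genotype) or a high-fat diet (HFD, 5 mice per genotype) for 16 weeks. A change in liver was therefore measured in an organ in which the Cre is not meant to act, and no group carried the Cre without loxP-flanked alleles.

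Mlkl, the targeted gene, was at 4.58 to 6.28 FPKM in visWAT of the 5 WT mice on HFD and at 2.32 to 2.72 in the 5 Mlkl Adi-KO mice. In liver on HFD it was at 2.62 to 2.99 and at 1.81 to 3.46, and the ranges overlapped. FPKM are reads scaled to the length of the gene and to a library size, so that levels can be compared between genes. Reads on genes ran from 20875463 to 30322171 per library. Albumin was at 25146 FPKM or more in every liver, and Adipoq at 743 or more in every visWAT library. In visWAT, WT NCD mouse 182 had Mlkl at 2.29 FPKM, within the Mlkl Adi-KO range on NCD (1.96 to 2.49), and in WT NCD mouse 183, 17.6% of reads on genes came from seminal vesicle secretory genes. For the members, the limma fits that use both libraries were repeated without them. Pathway lists, markers and group means are given with both libraries only.

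Ip6k2 (ENSMUSG00000032599) lies on chromosome 9 of mm39 from 108660995 to 108683536 on the plus strand. Its paralog Ip6k1 lies on the same chromosome and strand from 107879700 to 107925981, 781 kb before it measured from start to start. The other members are spread over chromosomes, with Ip6k3 (27362939 to 27386769, minus strand) and Nudt3 (27798356 to 27842469, minus strand) both on chromosome 17. Ppip5k1 lies on chromosome 2 (121141042 to 121185877, minus strand) and Ppip5k2 on chromosome 1 (97633773 to 97698136, minus strand). Ipmk (71183593 to 71269157, plus strand) and Nudt4 (95382869 to 95400008, minus strand) are on chromosome 10. Ippk is on chromosome 13 (49574725 to 49618049, plus strand) and Itpk1 on chromosome 12 (102534841 to 102671189, minus strand).

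All 10 members had a promoter among RefSeq promoters of GRCm38.p6, 13 promoters in all, each 300 bases long from 250 before to 50 after a start. The promoters of Ip6k2, the member that differed between genotypes, and of Ip6k1, its closest measured relative, are shown to compare the letters in front of both kinases. RefSeq gives Ip6k2 2 starts. By exact match in GRCm39, the upstream one lies 16 bases after the start in the deposited table and the downstream one 12198 bases after it, inside the gene. Capitals mark matches on either strand to any of 8 motifs. GGGCGG is the GC box and CCAAT the box of that name. TATAAA is the TATA box and CACGTG an E-box. The cyclic AMP response element was searched as the half-site TGACG and as the full site TGACGTCA, which holds the half-site. The forkhead site was searched as GTAAACA, and the D-box as TTATGNAA.
Ip6k2 upstream start, chr9:108783562-108783861 (GRCm38.p6), plus strand: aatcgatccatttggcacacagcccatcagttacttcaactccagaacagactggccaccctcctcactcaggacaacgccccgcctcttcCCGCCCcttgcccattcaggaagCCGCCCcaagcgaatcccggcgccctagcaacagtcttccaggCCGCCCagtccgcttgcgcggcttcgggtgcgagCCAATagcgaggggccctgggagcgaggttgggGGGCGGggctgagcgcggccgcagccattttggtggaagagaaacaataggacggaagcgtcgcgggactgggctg
Ip6k2 downstream start, chr9:108795744-108796043 (GRCm38.p6), plus strand: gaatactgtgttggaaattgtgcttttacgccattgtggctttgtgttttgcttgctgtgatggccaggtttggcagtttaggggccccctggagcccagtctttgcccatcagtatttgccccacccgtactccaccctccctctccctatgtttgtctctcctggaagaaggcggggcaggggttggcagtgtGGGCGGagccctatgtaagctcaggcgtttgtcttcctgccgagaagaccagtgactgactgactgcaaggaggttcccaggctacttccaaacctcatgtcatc
Ip6k1 start, chr9:108002398-108002697 (GRCm38.p6), plus strand: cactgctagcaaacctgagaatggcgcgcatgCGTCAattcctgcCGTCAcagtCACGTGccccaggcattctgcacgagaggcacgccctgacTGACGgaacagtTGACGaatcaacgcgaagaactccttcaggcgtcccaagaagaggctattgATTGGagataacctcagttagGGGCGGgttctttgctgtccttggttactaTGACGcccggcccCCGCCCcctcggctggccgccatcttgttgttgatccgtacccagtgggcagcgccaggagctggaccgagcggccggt
The upstream Ip6k2 promoter held 4 GC boxes and 1 CCAAT box, and the downstream one 1 GC box. The Ip6k1 promoter held 2 GC boxes, 1 CCAAT box, 1 E-box and 5 cyclic AMP response half-sites, and neither gene's windows held the full site, the forkhead site, the D-box or TATAAA. Of the 32851 RefSeq promoters, 35.7% held a GC box, 37.4% a CCAAT box, 7.15% an E-box and 20.8% a half-site. The full site was in 1.79%, the forkhead site in 3.65%, the D-box in 3.38% and TATAAA in 13.6%. The reads per gene do not tell which of the Ip6k2 starts was used.

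Ip6k2 was lower in liver of HFD-fed Mlkl Adi-KO mice. Its level was 5.62, 8.52, 9.60, 8.56 and 9.39 FPKM in the 5 Mlkl Adi-KO livers and 23.4, 16.1, 19.4, 22.7 and 16.3 FPKM in the 5 WT livers. Every Mlkl Adi-KO liver was below every WT liver, with a gap between 9.60 and 16.1. The means were 8.34 ± 1.59 and 19.6 ± 3.44 FPKM (SD, n = 5 each), a level 57.4% lower. The reads behind these values were 374 to 665 and 1213 to 1704 per liver. On the log2(FPKM + 1) scale the difference was -1.14 (SE 0.147, 95% interval -1.47 to -0.82, adjusted p = 0.0161 by limma). The two-sided exact permutation p was 0.00794, the smallest that 5 against 5 mice allow. The call was lost without WT mouse 161 (adjusted p = 0.0554) and when no filter on low genes was used (adjusted p = 0.0557), with the log2 difference at -1.14 in both. It was the only member that differed in this comparison, in which 26 of 13215 genes (0.197%) passed an adjusted p of 0.05.

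**Figure D1:**
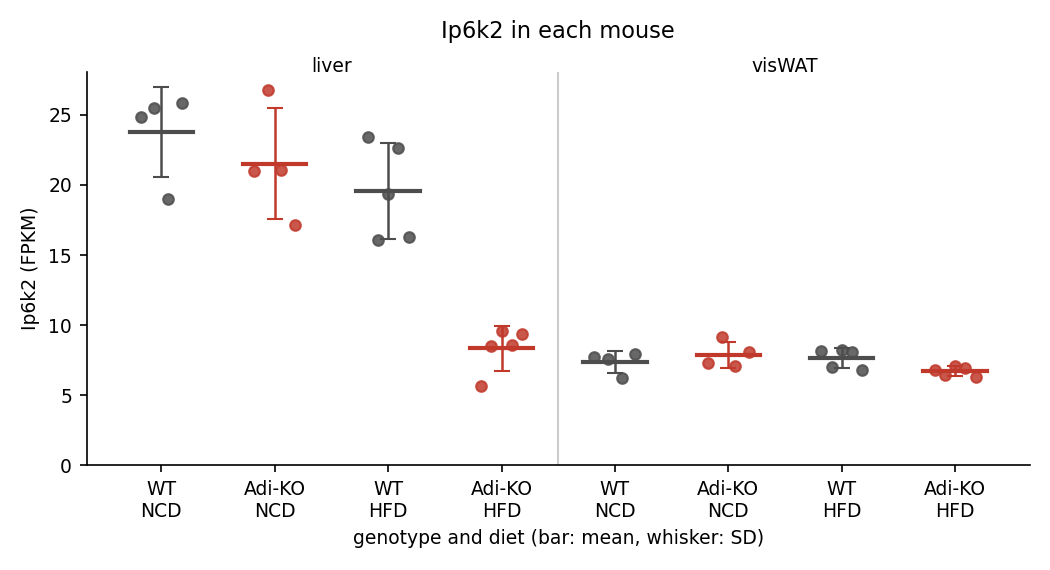
FPKM of Ip6k2 in each of the 36 libraries by genotype, diet and tissue, 1 point per mouse, with the group mean (bar) and SD (whisker). The 5 livers of HFD-fed Mlkl Adi-KO mice sit between 5.62 and 9.60 FPKM, and the other 13 livers between 16.1 and 26.8.

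On NCD the genotypes did not separate. Ip6k2 was at 24.9, 25.5, 19.0 and 25.8 FPKM in WT livers and at 21.0, 26.8, 21.0 and 17.2 FPKM in Mlkl Adi-KO livers. The ranges overlapped, and the log2 difference was -0.15 (SE 0.143, 95% interval -0.47 to 0.18, adjusted p = 0.996). Of 8 members tested in NCD livers none differed, with 1 of 13193 genes (0.00758%) called. At an unadjusted p under 0.05 the numbers were 0 members and 574 genes. The difference between the genotype effects on HFD and NCD, tested as an interaction over the 18 livers, was -0.996 for Ip6k2 (SE 0.219, 95% interval -1.46 to -0.53). Its adjusted p was 0.172 by limma, so that the genotype effects on both diets were not shown to differ, and 2 of 13248 genes (0.0151%) were called. DESeq2 on the recovered reads called it (adjusted p = 0.00306), among 58 genes, and over all alternatives the adjusted p ran up to 0.346.

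In visWAT, the tissue of the adipocytes that the Cre targets, Ip6k2 was at 6.79 to 8.20 FPKM in the 5 WT mice on HFD. It was at 6.32 to 7.08 in the 5 Mlkl Adi-KO mice. The ranges overlapped, and the log2 difference was -0.16 (SE 0.0628, 95% interval -0.30 to -0.02, adjusted p = 0.221). None of 9 members tested was called there, where 3 of 13963 genes (0.0215%) passed. At an unadjusted p under 0.05 there were 1 member, Ip6k2, and 3003 genes. On NCD it was at 6.20 to 7.97 FPKM in WT and at 7.07 to 9.12 in Mlkl Adi-KO mice (log2 difference 0.09, SE 0.102, adjusted p = 0.917). No gene of 14063 was called (0%), none of them a member, and at an unadjusted p under 0.05 there were 0 members and 528 genes. Without WT mice 182 and 183, still 0 members were called, with a log2 difference of 0.04 for Ip6k2.

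The liver effect on HFD was set against the visWAT effect within the same 10 mice, in a test added after the values were seen. The difference for Ip6k2 was -0.98 on the log2 scale (SE 0.136, 95% interval -1.29 to -0.68, adjusted p = 0.0445), and 7 of 14620 genes (0.0479%) were called. The call was lost with a pseudocount of 0.1, without a filter, on the TPM scale and by edgeR, and it was lost when any 1 of 8 of the 10 mice was left out (highest adjusted p 0.142, without WT mouse 161). The difference itself stayed between -1.05 and -0.86 when single mice were left out. None of the other 8 members tested had a called difference between tissues, and their values ran from -0.17 to 0.12. The genotype by diet interaction in visWAT gave -0.25 for Ip6k2 (SE 0.115, adjusted p = 0.374), or -0.19 without WT NCD mice 182 and 183, and 0 of 14136 genes (0%) were called by limma. DESeq2 called 20 genes, none of them a member, and 1867 genes had an unadjusted limma p under 0.05.

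**Figure D2:**
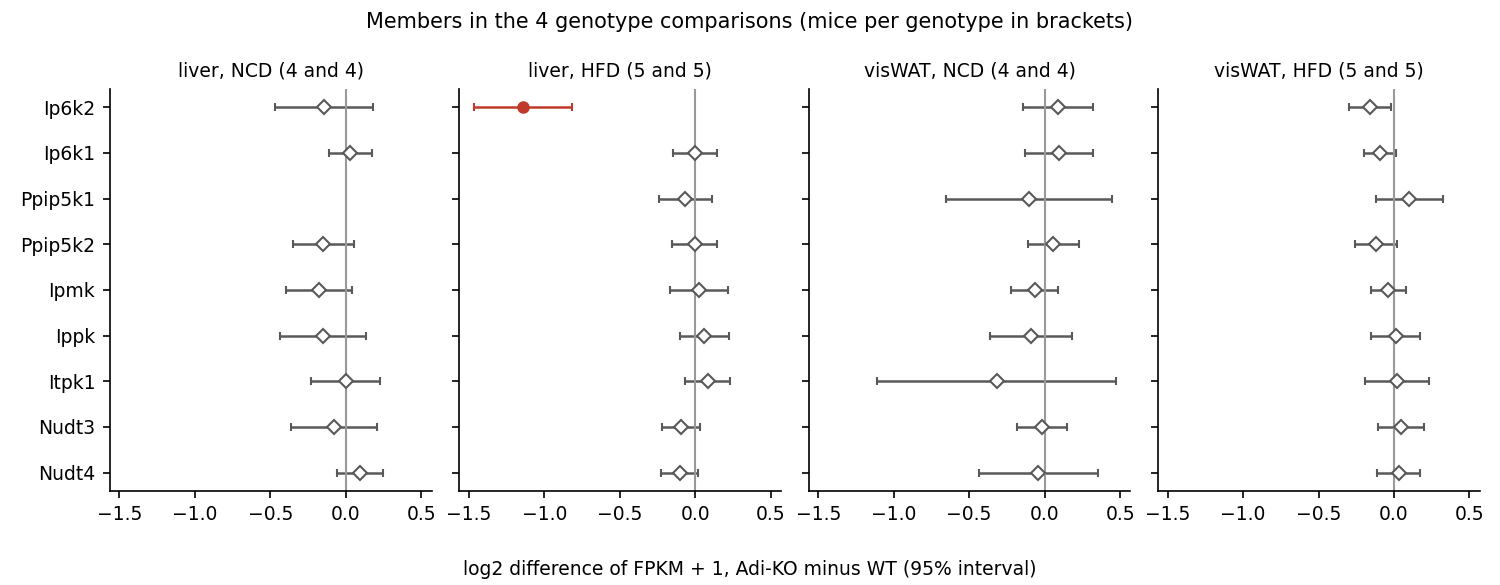
Log2 difference of FPKM + 1 between Mlkl Adi-KO and WT mice for the members tested, in liver and visWAT on NCD and HFD, with 95% intervals (limma). Filled: adjusted p under 0.05. Ip6k2 in liver on HFD, at -1.14, is the filled point, and Ppip5k1 was below the filter in liver on NCD.

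Ip6k1, the paralog that is expressed alongside Ip6k2, did not follow it. In liver on HFD it was at 12.9 ± 0.700 FPKM in WT and 12.9 ± 1.22 FPKM in Mlkl Adi-KO mice (SD, n = 5 each). The livers ran from 11.97 to 13.7 and from 11.8 to 14.3 FPKM and overlapped fully. The log2 difference was -0.00 (SE 0.0651), with a 95% interval of -0.15 to 0.14. That interval leaves out a fall of the size measured for Ip6k2. Ip6k3, a kinase known from muscle, had 1 read in 2 of the 18 livers and none in the other 16. It was at 0.0636 to 0.213 FPKM, or 5 to 16 reads, in visWAT on HFD, and it failed the filter in every comparison.

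With Ip6k1 level and Ip6k3 near 0, the make-up of the IP6 kinase transcripts changed. In WT livers on HFD, Ip6k2 made up 55.2% to 64.6% of the summed FPKM of the 3 kinases (mean 59.9% ± 4.05), and in Mlkl Adi-KO livers 31.5% to 44.2% (mean 38.95% ± 4.85). These shares did not overlap, and they do not depend on the scaling of a library. The difference was -20.9 percentage points (two-sided exact permutation p = 0.00794). The summed level of the 3 kinases was 28.1 to 36.8 FPKM in WT and 17.9 to 23.7 FPKM in Mlkl Adi-KO livers (means 32.5 and 21.3, two-sided exact permutation p = 0.00794). On NCD the shares were 65.3% ± 3.29 in WT and 62.3% ± 4.58 in Mlkl Adi-KO livers (n = 4 each, two-sided exact permutation p = 0.371, smallest possible 0.0286). In visWAT on HFD Ip6k2 was the smaller part in both genotypes, with 31.0% ± 1.73 and 29.6% ± 0.721 (two-sided exact permutation p = 0.151). The summed level of the 3 kinases there was 24.6 FPKM in WT and 22.7 FPKM in Mlkl Adi-KO mice (two-sided exact permutation p = 0.0238). These tests were added after the values were seen, and they use the values of Ip6k2 that the genotype comparison above already gave. Their p-values are not adjusted for the number of tests, which also covered diets and tissues.

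**Figure D3:**
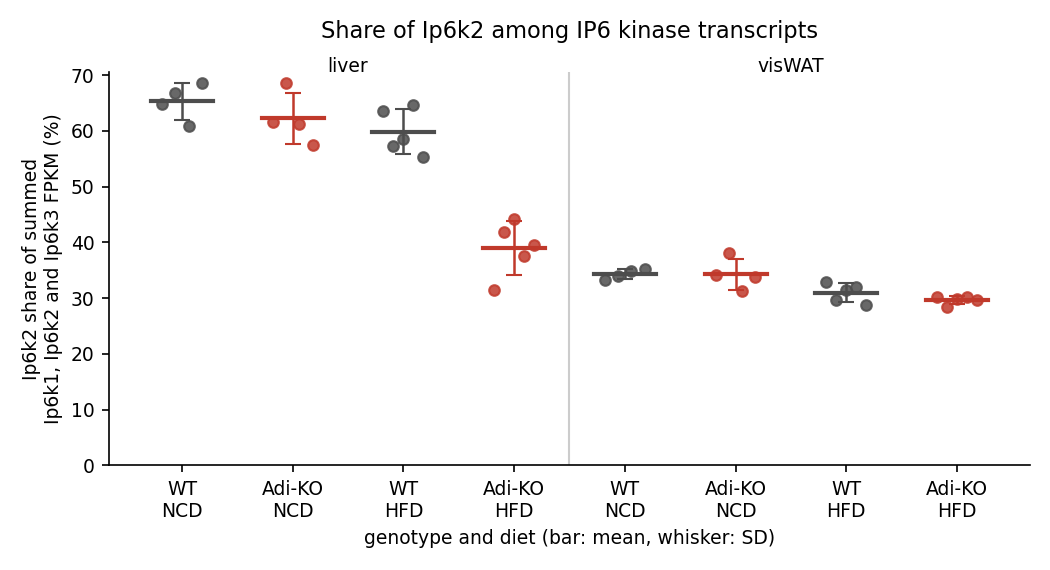
Share of Ip6k2 in the summed FPKM of Ip6k1, Ip6k2 and Ip6k3 in percent, 1 point per mouse, with the group mean (bar) and SD (whisker). Livers of HFD-fed Mlkl Adi-KO mice lie between 31.5% and 44.2%, below the 55.2% to 64.6% of HFD-fed WT livers.

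Neither kinase of the next step was called. Ppip5k2 was at 5.88 ± 0.238 FPKM in WT and 5.89 ± 0.706 FPKM in Mlkl Adi-KO livers on HFD (log2 difference -0.00, 95% interval -0.15 to 0.15). Ppip5k1 was low in liver, at 0.405 to 0.705 and 0.362 to 0.572 FPKM, from 74 to 165 reads per liver. Its log2 difference was -0.07 with an interval of -0.24 to 0.11, and on this scale a pseudocount of 1 holds down any change at such a level. With a pseudocount of 0.1 it was -0.16 (95% interval -0.62 to 0.29), and by edgeR and DESeq2 -0.20, none of them called. Both genotypes overlapped for either gene.

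Among the kinases that make the substrate, Ipmk was at 16.6 ± 1.65 and 16.98 ± 1.92 FPKM, and its log2 difference was 0.03 (95% interval -0.16 to 0.22). Ippk was at 2.56 ± 0.162 and 2.72 ± 0.379 FPKM, with a difference of 0.06 (-0.10 to 0.22). Itpk1 was at 6.55 ± 0.583 and 6.99 ± 0.514 FPKM, with a difference of 0.08 (-0.07 to 0.23). All 3 genes overlapped between genotypes. Nudt3 and Nudt4, on the removing side, had values a little below 0 that did not pass the test. Nudt3 was at 6.46 ± 0.198 FPKM in WT and 6.003 ± 0.556 in Mlkl Adi-KO livers, with a log2 difference of -0.09 (95% interval -0.22 to 0.03, adjusted p = 0.550). Nudt4 was at 91.6 ± 3.93 and 85.3 ± 5.51 FPKM, with a difference of -0.10 (95% interval -0.22 to 0.02, adjusted p = 0.466). The median over the 9 members tested was -0.00, against 0.00 over all 13215 genes.

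Since a library's scaling moves all members alike, Ip6k2 was also compared with each of the 8 other measured members within a liver, in a test added after the values were seen. The log2 ratio of Ip6k2 to the other gene, each as FPKM + 1, fell by 1.04 with Nudt4 as the partner, the smallest change, and by 1.23 with Itpk1, the largest. Scaling cancels fully only without a pseudocount, where the fall ran from 1.04 with Ppip5k1 to 1.33 with Itpk1. With Ip6k1 as the partner the ratio was 0.55 ± 0.232 in WT and -0.59 ± 0.265 in Mlkl Adi-KO livers, which turns the order of the 2 kinases. For all 8 partners every Mlkl Adi-KO liver was below every WT liver, and the two-sided exact permutation p was 0.00794 each, 0.00794 after Benjamini-Hochberg adjustment. With a pseudocount of 0.1 or none the ranges met for Ppip5k1, with an exact permutation p of 0.0159. The 8 tests share the 10 values of Ip6k2 and are not independent of one another. Those values were already known to separate the genotypes, so that the tests add no separate evidence for the fall of Ip6k2.

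Between livers of the same group, the other members varied with Ip6k2 to a degree that did not pass the test. Over the 18 livers, as deviations from the 4 group means, r with Ip6k2 was 0.56 for Nudt4, 0.55 for Itpk1 and -0.52 for Nudt3. Spearman's rho was 0.50, 0.60 and -0.44. Two-sided permutation p-values within groups were 0.0360, 0.0259 and 0.0412 for r and 0.0608, 0.0154 and 0.0974 for rho. After adjustment over the 8 members correlated, r had p = 0.110 for each of the 3 genes and rho had 0.243, 0.123 and 0.260. Ippk followed with r = 0.48 and rho = 0.40 (permutation p = 0.0627 and 0.133, adjusted p = 0.125 and 0.266). For Ip6k1, Ppip5k1, Ppip5k2 and Ipmk, r lay between -0.05 and 0.19 and rho between -0.01 and 0.12. The lowest of their permutation p-values was 0.554 for r and 0.640 for rho, and their lowest adjusted p was 0.886 and 0.873. Without Mlkl Adi-KO HFD mouse 151 and WT NCD mouse 182, the 2 livers farthest from the median deviation of Ip6k2, r was 0.59 for Nudt4 and 0.53 for Itpk1. It was -0.28 for Nudt3, 0.23 for Ippk, 0.01 for Ip6k1, -0.15 for Ppip5k1, 0.44 for Ppip5k2 and 0.28 for Ipmk.

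The genes most like Ip6k2 over the whole pattern of the 18 livers, group differences included, were then picked by rank. Their lead over the members follows from that choice. The 5 genes with the highest Pearson's r among 11355 genes of at least 1 FPKM were Rabgef1 (0.90), the long noncoding AI480526 (0.90), Lpin1 (0.90), Lpin2 (0.89) and Depp1 (0.89). As deviations from the group means, r was 0.80 and 0.71 for Rabgef1 and AI480526, and 0.52, 0.47 and 0.45 for Lpin1, Lpin2 and Depp1. These values describe the pattern, with the group difference itself part of the first set. In the second set, Nudt4 (0.56) and Itpk1 (0.55) were above Lpin1, Lpin2 and Depp1, and below Rabgef1 and AI480526. Lpin1 and Lpin2 encode lipins, phosphatidate phosphatases of triglyceride synthesis. Lpin1 was at 66.8 ± 15.9 FPKM in WT and 23.4 ± 6.43 FPKM in Mlkl Adi-KO livers on HFD (log2 difference -1.48, SE 0.195, adjusted p = 0.0171). Its ranges, 53.7 to 92.4 and 16.7 to 31.2 FPKM, did not overlap. In this comparison no gene was called lower without a filter or without WT mouse 161, so that the Lpin1 call was lost there. The differences of the other 4 genes missed the threshold, with -0.23 for Rabgef1, -0.36 for AI480526, -0.76 for Lpin2 and -1.51 for Depp1 (adjusted p = 0.255, 0.122, 0.119 and 0.0966). Among the members, Itpk1 had the highest r over the 18 livers, 0.31, at rank 2874 of the 11355.

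No gene tested around Ip6k2 had a fall as large as its own. Of 38 genes that start within 250 kb of its start, 13 were tested in HFD livers and 0 were called. That could be for any 13 genes where 26 of 13215 (0.197%) were called. At an unadjusted limma p under 0.05 there were 0 neighbours and 1664 of all genes. The median log2 difference of the neighbours tested was 0.02. Prkar2a, which starts before Ip6k2, was at 0.01 and Nckipsd, which starts 24.6 kb after it, at -0.01. The lowest value, -0.68 (95% interval -1.46 to 0.10), belonged to Gm23034, a small nucleolar RNA gene that lies inside Ip6k2 on the opposite strand and had at most 7 reads in a liver. Next came Slc25a20 with -0.17. Strand-specific counting is not given in the sources used here, and reads of Ip6k2 and Gm23034 cannot be told apart without it. The deposited table also places Map1a over Ppip5k1, Gin1 over Ppip5k2 and Cenpp over Ippk, each on the opposite strand. Map1a had up to 2194 reads in a library, so that the visWAT level of Ppip5k1 is uncertain. Gin1 had up to 410 reads in a liver, where Ppip5k2 had 1165 to 1845, so that the liver level of Ppip5k2 is uncertain too.

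**Figure D4:**
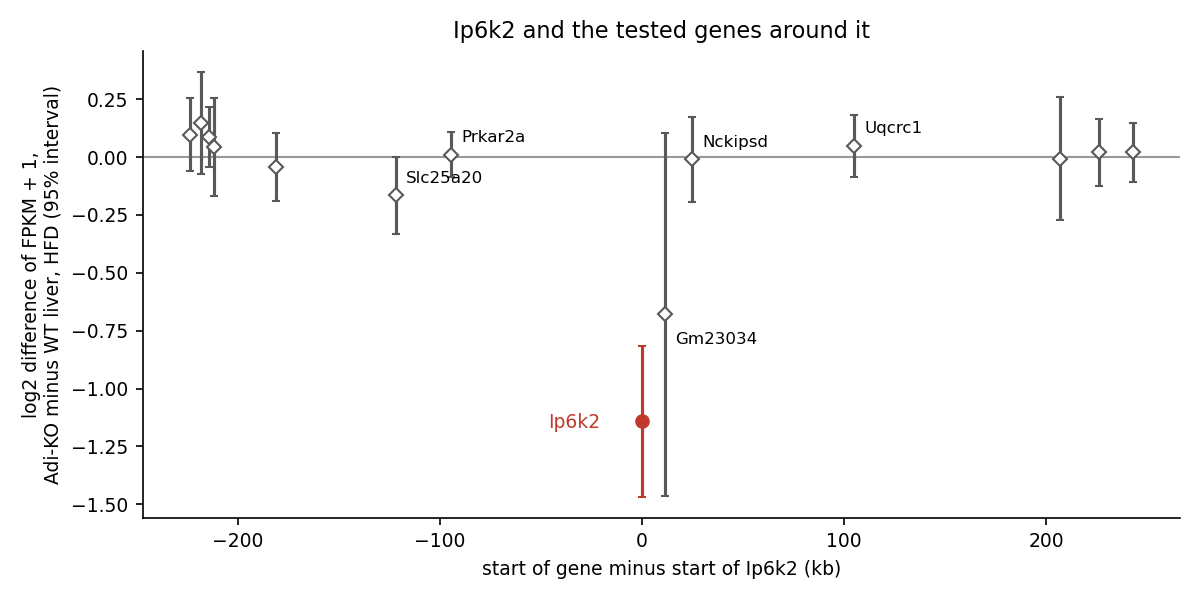
Log2 difference of FPKM + 1 between Mlkl Adi-KO and WT livers on HFD (95% interval) for Ip6k2 (filled) and the 13 tested genes that start within 250 kb of it, by distance from its start in kb. Apart from Gm23034 at -0.68, the neighbours lie between -0.17 and 0.15.

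Of 33 genes in the lists around the pathway, 20 were tested in HFD livers, and 0 were called between genotypes, as could be for any list of this size where 0.197% of genes were called. Their median log2 difference was 0.04. The lists held 4 tested genes of inositol supply, 5 phospholipases C and 2 inositol trisphosphate receptors. They also held 6 further inositol phosphate kinases and phosphatases and 3 phosphate transporters, and Nudt10 and Nudt11 were below the filter in both tissues. The 3 genes with the smallest p were Impa2, Slc20a1 and Itpr2, and none of them passed. Impa2, an inositol monophosphatase that releases free inositol, was at 1.84 ± 0.269 FPKM in WT and 1.32 ± 0.122 in Mlkl Adi-KO livers, with a gap between 1.48 and 1.51 (log2 difference -0.29, adjusted p = 0.177). Slc20a1, a phosphate importer, had a difference of 0.20 and Itpr2, a calcium channel opened by inositol trisphosphate, 0.08. The lists gave 0 calls in the other 3 genotype comparisons, of 20 genes tested in NCD livers and 25 each in visWAT on HFD and NCD. There 0.00758%, 0.0215% and 0% of all genes were called, so that 0 could be for any such list.

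Liver genes of fasting and the circadian clock were counted beside Ip6k2, since feeding state and time of day act on the liver. Of 13 tested genes of the fasting and glucocorticoid list, 1 fell between genotypes on HFD, where 26 of 13215 genes (0.197%) were called. It was Igfbp1 with -1.49 (SE 0.232, adjusted p = 0.0401), named after its value was seen. The Igfbp1 call was lost without a filter and without WT mouse 161, where no gene was called lower in this comparison. The list's median was -0.25 against 0.00 over all genes. Of 14 tested clock genes 0 were called, with a median of 0.11 and 7 at an unadjusted limma p under 0.05, where 1664 of all 13215 genes were. The fasting list had 2 of 13 at that threshold. Their part in the Ip6k2 result was not tested. Markers of the cell types a liver holds were counted too. Of 7 hepatocyte, 4 adipocyte, 6 macrophage, 4 fibroblast and 3 endothelial markers tested, 0 were called, as could be where 0.197% of genes were. Their medians were 0.14, -0.54, -0.00, -0.55 and 0.13. At an unadjusted limma p under 0.05 were 2 hepatocyte, 2 adipocyte, 0 macrophage, 1 fibroblast and 0 endothelial markers. The summed level of the adipocyte markers was 79.9 to 118 FPKM in WT and 16.5 to 100.4 FPKM in Mlkl Adi-KO livers on HFD, and that of the hepatocyte markers 43603 to 50472 and 47788 to 58130. The sums of macrophage markers were 58.9 to 85.4 and 41.5 to 157 FPKM, of fibroblast markers 32.2 to 43.5 and 18.3 to 42.2, and of endothelial markers 9.08 to 14.2 and 10.9 to 18.1. Lymphocyte markers summed to at most 1.43 FPKM in these livers, and no lymphocyte, seminal vesicle or skeletal muscle marker passed the filter. Whether these levels bear on Ip6k2 was not tested. Fewer cells of a type and less RNA per cell cannot be told apart in whole tissue.

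In WT livers Nudt4 rose from 78.6 ± 3.05 FPKM on NCD to 91.6 ± 3.93 FPKM on HFD, without overlap (log2 difference 0.22, SE 0.0497, adjusted p = 0.0115). It was the only one of 8 members tested that was called, where 3374 of 13330 genes (25.3%) passed. Without WT NCD mouse 182, Itpk1 (-0.25, adjusted p = 0.0420) and Nudt3 (0.20, adjusted p = 0.0123) were called too. Ip6k2 was at 19.6 ± 3.44 FPKM on HFD and 23.8 ± 3.22 on NCD, with overlap (-0.28, 95% interval -0.58 to 0.03, adjusted p = 0.172).

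In Mlkl Adi-KO livers 2 of 8 members were called, a share near that of all genes, of which 2919 of 13149 (22.2%) passed. Ip6k2 fell from 21.5 ± 3.96 FPKM on NCD to 8.34 ± 1.59 FPKM on HFD without overlap (log2 difference -1.27, SE 0.157, adjusted p = 0.000582). This comparison shares the HFD livers of the Mlkl Adi-KO mice with the genotype comparison. Ipmk rose from 13.2 ± 1.28 to 16.98 ± 1.92 FPKM (0.34, SE 0.0936, adjusted p = 0.0285), with overlapping ranges. That call was lost without any filter (adjusted p = 0.0563) and when any of 6 of the 9 mice was left out, Mlkl Adi-KO HFD mice 151, 152 and 156 and NCD mice 166, 197 and 199 (highest adjusted p 0.0778). Nudt4 had a difference of 0.02 here (95% interval -0.13 to 0.17), and the genotype by diet interaction for Nudt4 was -0.20 (adjusted p = 0.694). Around the pathway, 4 of 20 listed genes rose in WT livers on HFD and none fell, and in Mlkl Adi-KO livers 4 of 19 rose and 2 fell, against 25.3% and 22.2% of all genes called. Plcb1, Plcg1 and Plce1, phospholipases that release inositol trisphosphate, and its receptor Itpr1 rose in both genotypes. Itpr1 had 0.79 in WT and 0.86 in Mlkl Adi-KO livers. Isyna1, the enzyme that makes inositol from glucose, and Impa2 fell in Mlkl Adi-KO livers, by 0.57 and 0.62 on the log2 scale. In WT livers they were at -0.43 (adjusted p = 0.0907) and -0.10 (adjusted p = 0.380). The genotype by diet interaction called 0 of 20 listed genes, where 2 of 13248 genes (0.0151%) were called.

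In visWAT of Mlkl Adi-KO mice 3 of 9 members rose with HFD, where 6125 of 14026 genes (43.7%) passed, so that the count is no more than that of other genes. Itpk1 rose from 8.75 ± 1.59 FPKM on NCD to 18.6 ± 2.23 FPKM on HFD (log2 difference 1.01, SE 0.126, adjusted p = 0.000530). The ranges, 7.04 to 10.7 and 14.6 to 19.9 FPKM, did not overlap. Nudt3 rose from 9.03 ± 0.367 to 11.8 ± 0.646 FPKM (0.35, SE 0.0547, adjusted p = 0.00127), also without overlap. Ipmk rose from 1.91 ± 0.0975 to 2.39 ± 0.205 FPKM (0.22, SE 0.0583, adjusted p = 0.0139). Ip6k2 was at 7.89 ± 0.920 on NCD and 6.73 ± 0.323 on HFD (-0.20, adjusted p = 0.0522), a difference that edgeR and DESeq2 called (adjusted p = 0.0291 and 0.0292).

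In visWAT of WT mice 4 of 9 members were called, near the share of all genes, of which 5347 of 14161 (37.8%) passed. Nudt3 (0.29, adjusted p = 0.0226), Ip6k1 (0.26, adjusted p = 0.0415) and Ipmk (0.19, adjusted p = 0.0287) rose on HFD. Ippk fell by 0.31 on the log2 scale (adjusted p = 0.0306). On the TPM scale, which moved the median of all genes by 0.37, Ippk was at -0.02 and not called, and Itpk1 was called with 1.14 (adjusted p = 0.0249). Without WT NCD mice 182 and 183, Ipmk (0.25) and Nudt3 (0.33) were called, and so was Itpk1 (1.09, adjusted p = 0.000274), while Ip6k1 (0.16, adjusted p = 0.0507) and Ippk (-0.24, adjusted p = 0.119) were not. With them Itpk1 was at 0.67 (adjusted p = 0.106), and the values on NCD ran from 6.92 FPKM to 25.1 FPKM, the latter in mouse 182. These calls also depended on single mice. Only 1 member was called without WT NCD mouse 180 or without WT HFD mouse 155, 161 or 162, and 2 without WT NCD mouse 165 or WT HFD mouse 154 or 164, while 5 were called without WT NCD mouse 183.

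Macrophage markers rose with HFD in visWAT of both genotypes, 6 of 6 tested in each, with medians of 4.22 in WT and 2.87 in Mlkl Adi-KO mice. Their summed level was 163 to 256 FPKM in WT on NCD and 1519 to 2146 FPKM on HFD, against 221 to 389 and 592 to 1966 in Mlkl Adi-KO mice. Of 4 fibroblast markers, 4 rose in WT and 2 in Mlkl Adi-KO mice. Of 7 adipocyte markers, 1 rose and 4 fell in WT, and 2 rose and 2 fell in Mlkl Adi-KO mice. Their part in the diet results of the members was not tested. Around the pathway, 4 of 26 listed genes rose and 7 fell in WT visWAT, and 3 of 25 rose and 10 fell in Mlkl Adi-KO visWAT, counts to be read against the 37.8% and 43.7% of all genes called. Plcg2, a phospholipase C of blood cells, rose by 1.45 and 0.97. The inositol transporter gene Slc2a13 fell by 0.78 and 1.09, the trisphosphate kinase Itpka fell by 0.75 and 0.72, and the phosphate importer Slc20a2 fell by 0.67 and 0.64. Xpr1, the phosphate exporter, rose in WT mice (0.41, adjusted p = 0.00107). In Mlkl Adi-KO mice it was at 0.11 (adjusted p = 0.398). The genotype by diet interaction in visWAT called 0 of 26 listed genes and 0 of all 14136.

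In HFD-fed WT mice all 9 members tested were called between liver and visWAT, in a comparison in which most genes were, 12414 of 14666 (84.6%). RNA was extracted by a different method in each tissue, and the deposited FPKM contain a scaling that differs between tissues, so that extraction and tissue cannot be told apart. Ipmk was 6.72 times (16.6 against 2.47 FPKM) and Ppip5k2 5.83 times (5.88 against 1.01 FPKM) as high in liver. Ppip5k1 was at 0.542 FPKM in liver and 4.99 in visWAT, Itpk1 at 6.55 and 18.3, Nudt3 at 6.46 and 11.4, and Ip6k1 at 12.9 and 16.9. The direction of these 6 genes was the same on the TPM scale, which moved the median of all genes by -0.81. Nudt4 (0.56) and Ippk (0.56), higher in liver as deposited, were lower in liver on the TPM scale (-0.53 and -0.17), and Ip6k2 went from 1.24 to 0.23 (adjusted p = 0.0547) there. Within a library, which no scaling touches, Ip6k2 made up 59.9% of the IP6 kinase FPKM in liver and 31.0% in visWAT. The share was higher in liver in 5 of 5 mice, by 26.5 to 32.6 percentage points, with a two-sided exact permutation p within mice of 0.0625, the smallest that 5 pairs allow.

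By level, Nudt4 was the highest member in every group, with means between 61.7 and 91.6 FPKM. In liver of WT mice on HFD, Ip6k2 (19.6 FPKM) and Ipmk (16.6 FPKM) followed with overlapping ranges, then Ip6k1 (12.9 FPKM). Itpk1 (6.55), Nudt3 (6.46) and Ppip5k2 (5.88) lay close together, above Ippk (2.56) and Ppip5k1 (0.542). In the Mlkl Adi-KO livers on HFD, Ip6k2 (5.62 to 9.60 FPKM) overlapped with Itpk1 (6.21 to 7.59 FPKM) and lay below Ip6k1 (11.8 to 14.3 FPKM) in every mouse. Across the 8 groups the mean of Ip6k2 ran from 23.8 FPKM in WT NCD liver over 21.5, 19.6 and 8.34 in the other livers to 7.89, 7.64, 7.36 and 6.73 FPKM in visWAT. The 3 highest groups overlapped with one another, as did the 4 visWAT groups.

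**Figure D5:**
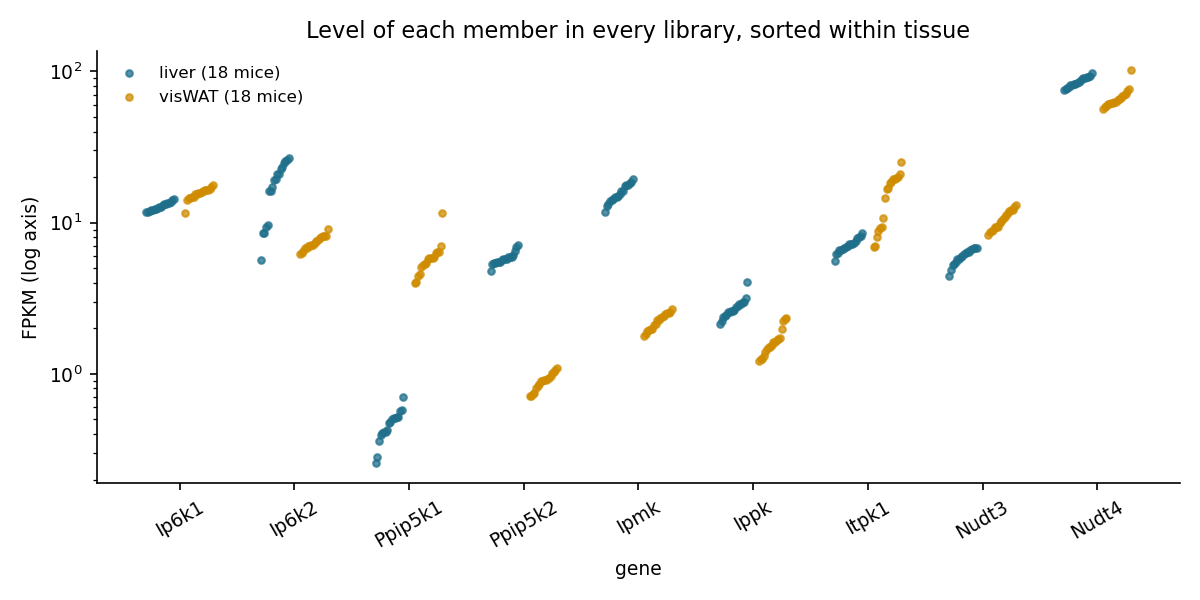
FPKM (log axis) of 9 members in all 36 libraries, sorted by value within each gene and tissue, with liver and visWAT in different colours. Ip6k3, at 0 in most livers, is not drawn. The 5 low liver values of Ip6k2, 5.62 to 9.60 FPKM, are the HFD-fed Mlkl Adi-KO mice.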

How the data were processed

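Per the paper's methods, polyadenylated RNA was selected, and reads were trimmed with fastp, mapped to mm39 (GRCm39) with HISAT2 and counted on genes with featureCounts (1.5.0-p3 in the submitters' processing notes). The authors deposited FPKM for 56748 genes in 36 libraries, with gene lengths in bases and, in comparison tables, counts of reads for listed genes. Their fold changes, p-values and pathway tables, and 72 further columns of single samples, counted over all samples, were not used. FPKM turned back into whole reads for 100% of values (tolerance 0.01). Divided by the reads on genes, the library size behind FPKM was 0.737 to 0.812 in liver libraries and 1.01 to 1.40 in visWAT libraries.

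For each comparison, log2(FPKM + 1) was fitted by limma (3.58.1), with variances moderated along a mean trend, over genes with a mean of at least 0.5 FPKM, with Benjamini-Hochberg adjustment over all of them and a threshold of 0.05. The fit was also run on counts simulated from the HFD livers with the same dispersion for all genes, which cannot speak for the other comparisons. Fold changes on this scale understate those of low genes. Limma results of the members and numbers of genes called were recomputed with 0.1 as the pseudocount, without the filter and with a filter at 1 FPKM. They were also recomputed on the TPM scale, by edgeR's quasi-likelihood test (4.0.16) and DESeq2 (1.42.0) on recovered reads, and with each mouse left out. Correlations were recomputed with that pseudocount, on the TPM scale and with each mouse left out, and ratio tests with other pseudocounts only. Values of pathway lists, markers, neighbours and other genes outside the members, and the share tests, were not recomputed. Leaving out WT NCD mice 182 and 183, the comparison of effects between tissues and the ratio and share tests were added after seeing the data.

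For single values, exact permutation tests (two-sided) over mice were used, and for correlations 100000 permutations within groups. Mice were taken from the labels, and liver and visWAT with one number come from 1 mouse. Their deviations from the group means hardly went together (r from -0.02 to 0.03 over the 5 WT HFD mice). Genotypes and diets were compared between separate mice. Liver and visWAT were compared within the same 5 mice, by limma without a block and, as an alternative, with the mouse as block, and for the kinase share by an exact test within mice, added after seeing the data.

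The members and lists were chosen with earlier results of these data known. Lists were inositol supply, phospholipase C, inositol trisphosphate receptors, further inositol phosphate kinases and phosphatases, Nudt10 and Nudt11, phosphate transport, clock, fasting, and cell type markers. Pathway genes were named where called in a genotype comparison, otherwise the 3 smallest p in HFD livers, and diet calls named were picked after their values were seen.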

Additional observations from a re-analysis of the deposited data

Results flagged for a closer look

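Of 76 sets of 1 member in 1 group, 8 held a mouse far from the others by Dixon's criterion, which chance gives in about 1 set in 20. Ip6k2 was low in liver of WT NCD mouse 182 (19.0 FPKM) and of Mlkl Adi-KO HFD mouse 151 (5.62 FPKM). Mouse 151 also had the highest Ppip5k2 of its liver group (7.13 FPKM). In visWAT, Itpk1 was high in WT NCD mouse 182 (25.1 FPKM) and low in Mlkl Adi-KO HFD mouse 156 (14.6 FPKM). Ppip5k1 was high in Mlkl Adi-KO NCD mouse 166 (7.005 FPKM), Ppip5k2 low in Mlkl Adi-KO NCD mouse 199 (0.804 FPKM) and Ip6k3 high in WT NCD mouse 183 (0.112 FPKM).

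The genotype effect on Ip6k2 on HFD differed between liver and visWAT by -0.98 on the log2 scale, by a test of the difference itself (adjusted p = 0.0445), with a range from 6.32e-07 by DESeq2 to 0.142 over its alternatives.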

How the results depend on the processing

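Of the 133 results recomputed, 2 reversed. On the TPM scale, Ippk (-0.17) and Nudt4 (-0.53) were lower in liver than in visWAT. The call of Ip6k2 between genotypes in HFD livers was lost without a filter, at the same log2 difference of -1.14, so that 0 members were called there, with 7 genes called in place of 26. Leaving out single mice gave -1.21 to -1.02 and 0 to 1 members. DESeq2 called 259 genes in that comparison, and leaving out single mice gave 9 to 37. Without a filter, 1 member was called between diets in Mlkl Adi-KO livers (1 to 2 with single mice left out) and 1 in WT visWAT, where edgeR called 2 (1 to 5 with single mice left out). In WT livers 1 to 3 were called with single mice left out. DESeq2 called 1 member in the genotype by diet interaction in liver. For the difference between tissues, 0 members were called with a pseudocount of 0.1, without a filter, on the TPM scale and by edgeR, and 0 to 1 with single mice left out, and the number of genes was 2 under those settings, 249 by DESeq2 and 1 to 174 with single mice left out. The cause was not tested.

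With the mouse as replicate block, all 9 members tested were called between liver and visWAT (12304 genes), and without the block 19 genes, Ip6k2 among them, were called for the difference between tissues. Other counts that moved by over 1.5 times were those of few calls. DESeq2 called 19 genes between genotypes in NCD livers, 146 in HFD visWAT and 8 in NCD visWAT. No filter gave 3 in NCD livers and 2 in NCD visWAT, the TPM scale 5 in HFD visWAT and 1 in NCD visWAT, and leaving out WT mice 182 and 183 gave 3 in NCD visWAT. In the liver interaction edgeR called 1 gene and a filter of 1 FPKM gave 4. The TPM scale moved the split of higher and lower calls from 3108 and 2239 to 3881 and 228 between diets in WT visWAT, where edgeR gave 2693 and 3169, and from 6313 and 6101 to 2817 and 10530 between tissues. In HFD livers it was 12 and 15 in place of 17 and 9. It moved the median by 0.31 between genotypes in NCD visWAT and by -0.39 in the visWAT interaction. Values that were called neither way changed sign in 29 cases under other settings and in 66 with single mice left out. Depth limited Ip6k3 and, in liver, Ppip5k1.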
